A study of Homo sapiens with 9 samples.

Results

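The TRAIL, FAS and death receptor genes were examined as 10 genes chosen by symbol: the ligand gene TNFSF10, the receptor genes TNFRSF10A, TNFRSF10B, TNFRSF10D, FAS, TNFRSF1A, TNFRSF12A and TNFRSF21, and the genes CFLAR and CASP8, whose products act directly below the receptors. They are 10 of 16199 genes listed in at least 1 library, and a gene not listed in a library was taken as 0 there. Of the 10 genes, 9 were among the 12394 genes with enough counts to be tested, and TNFRSF10D was not. The cells were HaCaT keratinocytes, an immortalized human skin line with wild-type genotype in the labels, grown in serum-containing medium and used after confluence. The untreated group was kept in serum-free medium, the second group received epidermal growth factor (EGF, 10 nM) and the last received bleogen pB1 (1 µM), an EGF-like peptide from a cactus, each treatment lasting 24 h. Each group held 3 libraries of polyadenylated RNA, with 20288417 to 21320994 expected counts per library. All cells belong to 1 line, and the sources do not state whether replicates were separate cultures, so p-values measure only the spread between these libraries.

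TRAIL and FAS ligand are members of the tumour necrosis factor family that bind death receptors on the cell surface. The bound receptors recruit the adaptor FADD and the initiator caspases 8 and 10, and their activation leads to apoptosis. cFLIP, the product of CFLAR, resembles caspase 8 but has no protease activity and competes for the same complex, and decoy receptors bind ligand without passing on a death signal. In epidermis this pathway is known for its part in the removal of damaged keratinocytes, and the receptors also signal through NF-kappaB.

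TNFSF10 had the largest change under EGF among the 9 tested genes, and CFLAR and CASP8 are neighbours on 1 chromosome whose products compete, so the sequences next to their starts are shown. RefSeq promoter windows on GRCh38.p14 were found for 6 of the 10 genes, namely TNFSF10, FAS, TNFRSF1A, TNFRSF21, CFLAR and CASP8, and not for TNFRSF10A, TNFRSF10B, TNFRSF10D or TNFRSF12A. Capitals mark matches to 4 motifs searched on both strands. These were an interferon-stimulated response element core (GAAA, any 2 bases, GAAA), a gamma-activated site (TTCNNNGAA), an AP-1 site (TGANTCA) and a kappaB site (GGG, any 3 bases, TTCC). For TNFSF10 (chr3:172523431-172523680, minus strand) and CFLAR (chr2:201118466-201118715, plus strand) the 250 bases before 1 annotated start are given, and for CASP8 (chr2:201233450-201233479, plus strand) the match with 10 bases on each side.
TNFSF10: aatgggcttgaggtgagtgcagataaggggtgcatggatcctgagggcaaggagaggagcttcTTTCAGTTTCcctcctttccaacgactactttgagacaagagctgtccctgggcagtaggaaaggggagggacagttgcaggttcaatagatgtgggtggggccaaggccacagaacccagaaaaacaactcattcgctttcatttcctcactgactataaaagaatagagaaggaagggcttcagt
CFLAR: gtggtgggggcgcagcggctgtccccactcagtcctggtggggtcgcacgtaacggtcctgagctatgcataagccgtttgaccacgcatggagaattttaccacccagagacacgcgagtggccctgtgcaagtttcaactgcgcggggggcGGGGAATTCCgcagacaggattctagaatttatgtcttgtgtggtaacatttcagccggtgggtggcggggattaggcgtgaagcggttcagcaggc
CASP8: gagtttttggTTTCTGTTTCaccttgtgtc
The response element core matched once in the TNFSF10 window, on the opposite strand, beginning at position -187 relative to the start. The CFLAR stretch held 1 kappaB match at position -97. The CASP8 stretch held 1 response element match at position -3, and the same window had a gamma-activated site at position -200. No matches overlapped in these windows. The search covered windows of 300 bases, 250 before each start and 50 after it. In other windows the AP-1 site matched at position -160 in 1 of 4 CFLAR windows, at -1 and -61 in 2 of 3 CASP8 windows and at -242 in 1 of 3 FAS windows. The kappaB site matched in 1 of 4 CFLAR windows and the response element core in 1 of 3 CASP8 windows, in each case the window shown. The windows of TNFRSF1A and TNFRSF21 held no match to any of the 4 motifs. Of 35116 RefSeq promoter windows of 300 bases, 3.57% held the response element core, 7.66% the gamma-activated site, 7.71% the AP-1 site and 6.52% the kappaB site. The matches describe the sequence and were not tested for binding or for a part in the RNA levels.

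In untreated cells the 10 genes fell into a high and a low set by FPKM, a level scaled for gene length and depth. TNFRSF1A, the main receptor for TNF, had the highest level at 76.7 ± 2.75 FPKM (SD, n = 3). TNFRSF12A, the receptor for the ligand TWEAK, followed at 67.2 ± 4.71 FPKM, and TNFRSF21, death receptor 6, at 60.5 ± 1.57 FPKM. The ranges of these 3 receptors did not overlap. TNFSF10, which encodes TRAIL, came next at 41.6 ± 3.13 FPKM. TNFRSF10B had 13.8 ± 0.202 FPKM, CASP8 12.9 ± 0.497, CFLAR 9.53 ± 0.559, TNFRSF10A 7.70 ± 0.775 and FAS 4.81 ± 0.301 FPKM. In this low set too no neighbours in the order overlapped in range. TNFRSF10D was listed in no untreated library. After EGF the order was different, with TNFRSF12A first at 137 ± 9.26 FPKM and TNFSF10 ninth at 3.81 ± 0.361 FPKM. Under EGF, TNFRSF10B and TNFRSF10A overlapped in range, and the other neighbours in the order did not. In bleogen pB1-treated cells the first 4 places were held by TNFRSF12A, TNFRSF21, TNFRSF1A and TNFSF10, at 73.5 ± 5.14, 73.4 ± 4.16, 68.8 ± 2.75 and 29.1 ± 4.88 FPKM, and the ranges of the 3 receptors overlapped. There TNFRSF10B also overlapped CASP8, and TNFRSF10A overlapped CFLAR.

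**Figure D1:**
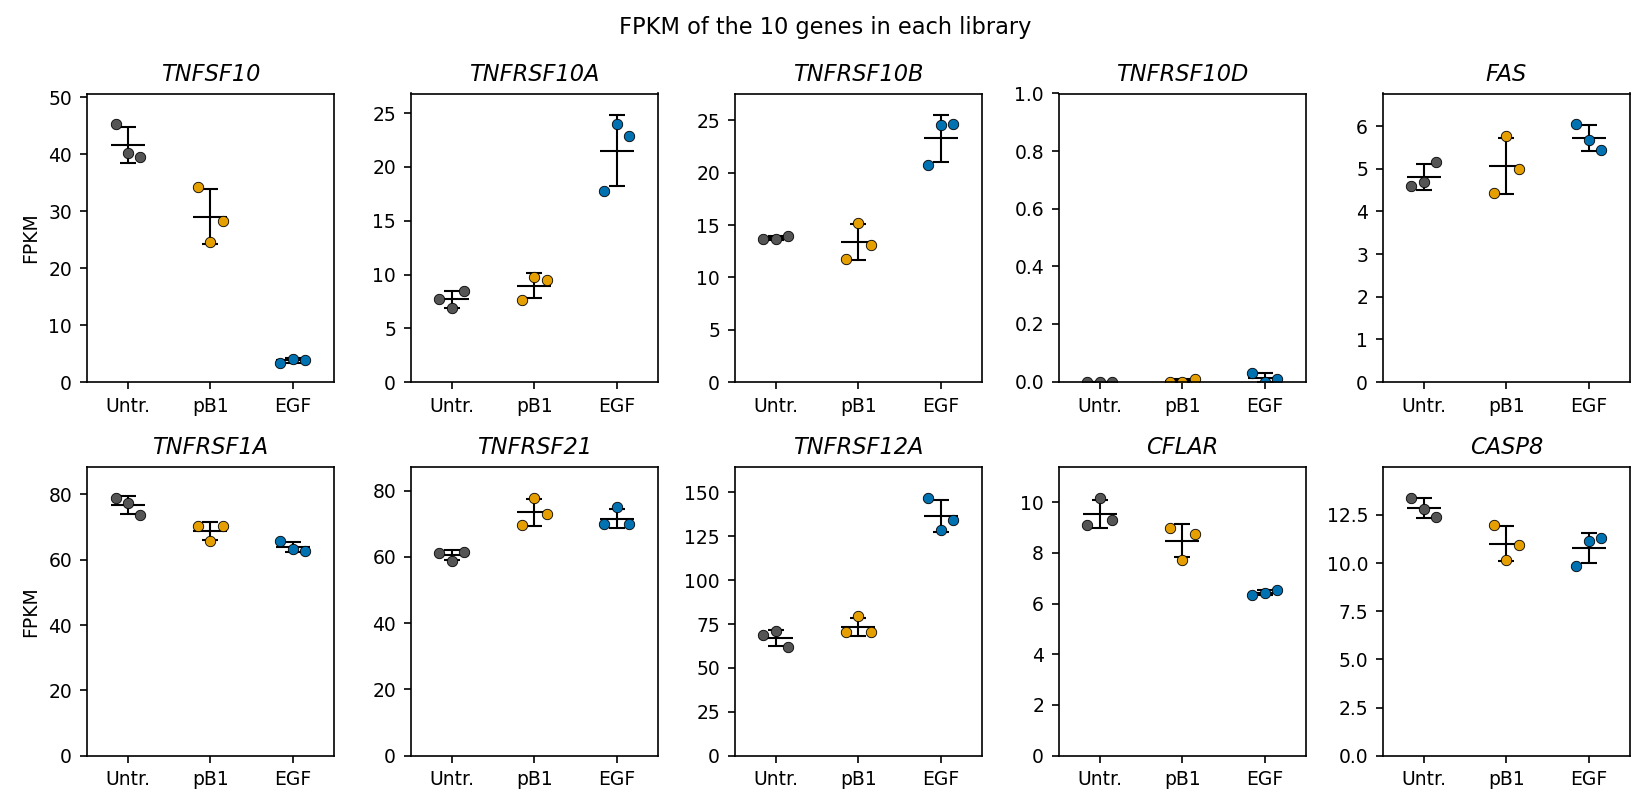
FPKM (vertical axis, a linear scale from 0 that differs between panels) of the 10 genes in each library (points) of untreated, bleogen pB1-treated (pB1) and EGF-treated cells, with the mean (long bar) and SD (short bars) of 3 libraries. TNFSF10 lies between 3.40 and 4.08 FPKM after EGF, below all other libraries, and TNFRSF10A, TNFRSF10B and TNFRSF12A are highest after EGF.

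A gene was called changed at an adjusted p of at most 0.05 (edgeR's quasi-likelihood test, Benjamini-Hochberg adjustment over all 12394 genes) with a log2 fold change of at least 0.5 in size. EGF raised 3 of the 9 tested genes, TNFRSF10A, TNFRSF10B and TNFRSF12A, and lowered 2, TNFSF10 and CFLAR. Over all tested genes 36.9% were called in this comparison, 15.1% as higher and 21.8% as lower, so that 5 of 9 is to be read against a large background. Bleogen pB1 lowered 1 of the 9, TNFSF10, and raised none, where 1.48% of all tested genes were called, 0.218% as higher and 1.26% as lower. At an unadjusted p under 0.05 edgeR gave 5 of the 9 under bleogen pB1, 1 of them higher, beside 2750 of all 12394 tested genes. DESeq2 called 0 of the 9 as higher. EGF-treated cells compared directly with bleogen pB1-treated cells had 3 of the 9 higher and 1 lower, against 28.8% of all genes, 10.8% higher and 18.0% lower. The libraries of the compared groups did not overlap in 9 of the 9 genes for EGF against untreated, where this held for 70.4% of all tested genes. They did not overlap in 5 of 9 for bleogen pB1 against untreated, beside 29.1% of all genes, and in 5 of 9 for EGF against bleogen pB1, beside 62.4%. The median log2 fold change of the 9 genes was 0.30 for EGF against untreated and -0.06 for bleogen pB1 against untreated, beside -0.0133 and -0.00103 over all tested genes. The comparisons share libraries: both treated groups were set against the same untreated ones.

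**Figure D2:**
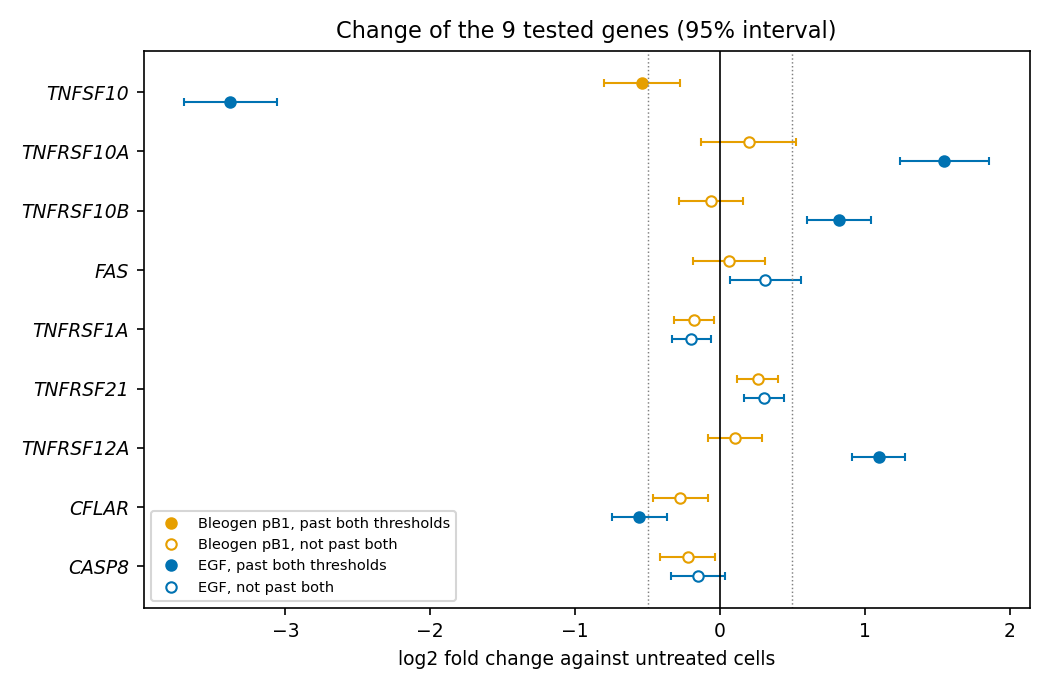
Log2 fold change against untreated cells (horizontal axis) of the 9 tested genes under bleogen pB1 and EGF, with 95% intervals from the edgeR fit. Filled points passed both thresholds, and dotted lines mark log2 fold changes of 0.5 in either direction. TNFSF10 lies at -3.38 under EGF and -0.54 under bleogen pB1.

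TNFSF10 RNA fell by about 1 order of magnitude in EGF-treated cells. Its FPKM was 45.22, 40.18 and 39.49 in the untreated libraries, 3.40, 4.08 and 3.95 in the EGF libraries and 34.29, 24.63 and 28.26 in the bleogen pB1 libraries. The EGF libraries lay far below both other groups, and the bleogen pB1 libraries lay between, with no overlap of any pair of groups. The change under EGF was -3.38 on the log2 scale (SE 0.129, adjusted p = 5.9e-10, edgeR), a 10.4-fold lower level. Under bleogen pB1 it was -0.54 (SE 0.107, 95% interval -0.80 to -0.28, adjusted p = 0.016, edgeR). The direct comparison gave -2.84 for EGF against bleogen pB1 (adjusted p = 4.1e-09, edgeR). The fall under EGF was called whichever library was left out, with log2 values of -3.42 to -3.30. The fall under bleogen pB1 was not. Its adjusted p was 0.111 without the first untreated library, 0.0528 without the second, 0.0570 without the second bleogen pB1 library and 0.0954 without the third, and its log2 value ranged from -0.68 to -0.44 over the 6 fits. Over 19 alternative settings, which include the fits with 1 library left out, this call was kept in 13 and lost in 6. Its direction never changed. The call held with DESeq2, the study's tool, and the study names TNFSF10 among genes changed by both treatments. In RNA from whole cultures, fewer cells that make a transcript and less transcript per cell cannot be told apart.

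The genes for the death domain receptors of TRAIL were higher after EGF. TNFRSF10A, which encodes TRAIL receptor DR4, had 7.72, 6.92 and 8.47 FPKM in untreated, 17.74, 23.95 and 22.87 in EGF-treated and 7.66, 9.81 and 9.45 in bleogen pB1-treated libraries. The EGF libraries stood above all others, and the bleogen pB1 libraries overlapped the untreated ones. Its log2 fold change was 1.55 under EGF (SE 0.128, 2.93-fold, adjusted p = 5.2e-07, edgeR). Under bleogen pB1 it was 0.20, with a 95% interval of -0.13 to 0.53 and an adjusted p of 0.41 (edgeR). TNFRSF10B, which encodes the other death domain receptor of TRAIL, DR5, had 13.66, 13.64 and 14.00 FPKM in untreated, 20.72, 24.58 and 24.61 in EGF-treated and 11.79, 15.18 and 13.14 in bleogen pB1-treated libraries. Here again the EGF libraries were above the rest, while the untreated libraries fell inside the range of the bleogen pB1 libraries. Its log2 fold change was 0.82 under EGF (SE 0.0893, adjusted p = 5.1e-06, edgeR). Under bleogen pB1 it was -0.06 with an interval of -0.28 to 0.16. Against bleogen pB1 the EGF libraries were higher by 1.35 for TNFRSF10A (adjusted p = 2.2e-06, edgeR) and by 0.88 for TNFRSF10B (adjusted p = 4.3e-06, edgeR) on the log2 scale.

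The decoy receptor gene TNFRSF10D, whose product binds TRAIL but lacks a complete death domain, was at the limit of detection. It had 0 counts in each untreated library, 2, 0 and 1 counts in the EGF libraries and 0, 0 and 1 in the bleogen pB1 libraries. A count of 0 allows levels of up to 0.141 to 0.148 CPM (counts scaled to library size, 3 counts of a library's total), which covers counting error only. Its share in the summed FPKM of TNFRSF10A, TNFRSF10B and TNFRSF10D averaged 0.0330% after EGF and 0.0147% after bleogen pB1. The exact permutation test of these shares (two-sided, smallest possible p 0.1 with 3 against 3) gave p = 0.4 for EGF and p = 1.0 for bleogen pB1 against untreated. With most of these shares at 0, the test could not reach that smallest p and so says nothing on a difference in share. The other decoy receptor gene of TRAIL, TNFRSF10C, was also scarce, with 0 to 7 counts per library. These receptor genes lie side by side on chromosome 8 (GENCODE 44, GRCh38: TNFRSF10B at 23020133-23069031, TNFRSF10D at 23135588-23164027 and TNFRSF10A at 23190452-23225102) and are similar in sequence, so counts that the estimation divided between them are uncertain.

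The level of TNFRSF10A relative to that of TNFRSF10B was highest after EGF. The ratio of their FPKM, looked at after the values were known, was 0.565, 0.507 and 0.605 in untreated, 0.856, 0.974 and 0.929 in EGF-treated and 0.650, 0.646 and 0.719 in bleogen pB1-treated libraries. No pair of groups overlapped. The exact permutation p was 0.1 for each of the 3 pairs, the smallest that 3 against 3 allows. The mean ratio was 0.559 ± 0.0491, 0.920 ± 0.0596 and 0.672 ± 0.0411 (SD, n = 3) in the same order.

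FAS, which encodes the receptor of FAS ligand, was the lowest of the receptor genes among the 9 tested genes and moved little. It had 4.59, 4.68 and 5.15 FPKM in untreated, 6.04, 5.68 and 5.43 in EGF-treated and 4.44, 5.76 and 5.00 in bleogen pB1-treated libraries. The EGF libraries lay above the untreated ones, and the bleogen pB1 libraries overlapped both. The log2 fold change was 0.31 under EGF (SE 0.101, adjusted p = 0.015, edgeR), below the limit of 0.5. With 1 library left out, this adjusted p ran from 0.0183 to 0.0616 (edgeR). Under bleogen pB1 the log2 fold change was 0.06, with a 95% interval of -0.19 to 0.31. The gene for its ligand, FASLG, had 1 count in 1 bleogen pB1 library and 0 in the other 8.

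The remaining receptors were the abundant ones. TNFRSF12A, the TWEAK receptor Fn14, which has no death domain of its own, had 68.80, 70.85 and 61.86 FPKM in untreated, 146.85, 128.72 and 134.48 in EGF-treated and 70.31, 79.40 and 70.71 in bleogen pB1-treated libraries. All EGF libraries were above all others, and the other groups overlapped. It was 2.14-fold higher after EGF (log2 1.10, SE 0.0756, adjusted p = 1.0e-07, edgeR). Under bleogen pB1 the log2 value was 0.10 (interval -0.09 to 0.29), and EGF against bleogen pB1 gave 1.00 (adjusted p = 3.2e-07, edgeR). Its ligand gene TNFSF12 was low, at 1.013 ± 0.315 FPKM in untreated and 0.620 ± 0.113 in EGF-treated cells, with overlapping groups (log2 -0.64, adjusted p = 0.10, edgeR; -0.85 and 0.0413 without the third untreated library).

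TNFRSF21 had 61.22, 58.74 and 61.64 FPKM in untreated, 69.92, 74.97 and 69.88 in EGF-treated and 69.55, 77.82 and 72.93 in bleogen pB1-treated libraries. Both treated groups lay above the untreated one and overlapped each other. The log2 values were 0.30 under EGF (adjusted p = 0.00044, edgeR) and 0.26 under bleogen pB1 (adjusted p = 0.027, edgeR), both under the limit of 0.5. With 1 library left out, the adjusted p under bleogen pB1 ran from 0.00976 to 0.123 (edgeR). The difference between EGF and bleogen pB1 was 0.04 (adjusted p = 0.53, edgeR). TNFRSF1A had 78.91, 77.51 and 73.60 FPKM in untreated, 65.71, 63.27 and 62.63 in EGF-treated and 70.25, 65.59 and 70.45 in bleogen pB1-treated libraries. Here both treated groups lay below the untreated one. The log2 values were -0.20 under EGF (adjusted p = 0.0072, edgeR) and -0.18 under bleogen pB1 (adjusted p = 0.089, edgeR), neither reaching 0.5 in size. The gene TNF had 1 to 9 counts and LTA, another TNF receptor ligand, 0 to 6 counts per library, too few for a test.

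CFLAR, the caspase 8 inhibitor, was lower after EGF. It had 9.12, 10.17 and 9.31 FPKM in untreated, 6.34, 6.40 and 6.53 in EGF-treated and 8.97, 7.74 and 8.75 in bleogen pB1-treated libraries. The EGF libraries lay closely together below all others, and the bleogen pB1 libraries lay just below the untreated ones. The log2 fold change was -0.56 under EGF (SE 0.0784, 1.47-fold lower, adjusted p = 4.3e-05, edgeR), near the limit of 0.5, and it passed whichever library was left out (-0.62 to -0.52). Under bleogen pB1 it was -0.27 with a 95% interval of -0.47 to -0.09 and an adjusted p of 0.065 (edgeR). EGF against bleogen pB1 gave -0.28 (adjusted p = 0.008, edgeR), under the limit. The length deposited for CFLAR, an average over its transcripts, varied from 6514.71 to 7775.14 bases between libraries, so its FPKM also carries differences in the transcripts assigned.

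CASP8, the initiator caspase of these receptors, had 13.38, 12.81 and 12.39 FPKM in untreated, 9.87, 11.16 and 11.32 in EGF-treated and 11.95, 10.14 and 10.94 in bleogen pB1-treated libraries. Both treated groups lay below the untreated one and overlapped each other. The log2 values were -0.15 under EGF (adjusted p = 0.099, edgeR) and -0.22 under bleogen pB1 (adjusted p = 0.11, edgeR). The FPKM ratio of CFLAR to CASP8 was 0.682, 0.794 and 0.751 in untreated, 0.642, 0.573 and 0.577 in EGF-treated and 0.751, 0.763 and 0.800 in bleogen pB1-treated libraries. It was lower in every EGF library than in the other groups (exact permutation p = 0.1 against each, the smallest possible), and the bleogen pB1 and untreated libraries overlapped (exact permutation p = 0.5). On chromosome 2 (GENCODE 44, GRCh38), CFLAR spans 201116154-201176687 and CASP8 201233443-201361836, both on the plus strand. The sources do not say whether strand was used in counting, so reads of overlapping genes are uncertain.

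Of 41 other genes of the pathway, drawn up as ligands, decoys, adaptors, ubiquitin enzymes, caspases and inhibitors, 34 were tested. After EGF 6 were higher and 5 lower, with a median log2 fold change of 0.24 beside -0.01 over all tested genes, of which 15.1% were called higher and 21.8% lower. Under bleogen pB1 none was called by edgeR, DESeq2 or limma. An unadjusted p under 0.05 in edgeR was found for 8 of the 34, 1 of them higher. This was a similar share to that of all tested genes, 2750 of 12394. EGF against bleogen pB1 gave 8 higher and 3 lower, where 10.8% and 18.0% of all tested genes were called.

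The genes raised by EGF included inhibitors and a decoy. TNFAIP3, the NF-kappaB feedback inhibitor A20, had 3.45, 2.76 and 3.86 FPKM in untreated, 16.36, 19.84 and 18.22 in EGF-treated and 3.28, 4.79 and 3.96 in bleogen pB1-treated libraries. Its log2 fold change was 2.49 under EGF (adjusted p = 1.2e-08, edgeR), with the EGF libraries above all others. BIRC3, the ubiquitin ligase cIAP2, had a log2 value of 1.69 (adjusted p = 4.0e-04, edgeR). It spread widely after EGF, from 7.30 to 22.11 FPKM, above 4.37 to 5.51 in untreated libraries. The bleogen pB1 libraries ran from 3.72 to 7.33 FPKM and so just overlapped the EGF ones. TNFRSF6B, the soluble decoy receptor of FAS ligand, was higher by 1.25 (adjusted p = 0.00042, edgeR), from 2.03 ± 0.423 to 4.58 ± 0.797 FPKM. TNFRSF25, death receptor 3, was higher by 1.15 (adjusted p = 6.2e-06, edgeR). FADD, the adaptor that links death receptors to caspase 8, rose from 21.9 ± 1.53 to 36.5 ± 1.57 FPKM (log2 0.80, adjusted p = 1.2e-06, edgeR). The sixth was TRAF1, a low-level adaptor at 0.883 ± 0.287 FPKM after EGF and 0.350 ± 0.0557 in untreated cells.

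The genes lowered by EGF were a caspase, 2 signal carriers of the TNF receptor, an inhibitor and a ubiquitin ligase subunit. CASP10, the initiator caspase next to CASP8 and CFLAR, fell from 2.65 ± 0.193 to 1.00 ± 0.0611 FPKM (log2 -1.27, adjusted p = 5.6e-07, edgeR). Its value under bleogen pB1 was -0.41 (adjusted p = 0.041, edgeR), under the limit of 0.5 in size, and the 3 bleogen pB1 libraries lay between both other groups. TRADD, the adaptor of TNF receptor 1, fell by 0.79 on the log2 scale (adjusted p = 1.1e-05, edgeR), and RIPK1, the kinase it recruits, by 0.68 (adjusted p = 1.8e-05, edgeR). NOL3, an apoptosis repressor that binds caspase 8, fell by 0.78 (adjusted p = 5.3e-05, edgeR), and RNF31, a subunit of the linear ubiquitin ligase, by 0.58 (adjusted p = 1.3e-05, edgeR). BID, whose product carries the death receptor signal to mitochondria, had a log2 value of -0.24 (adjusted p = 0.0036, edgeR), under the limit of 0.5 in size. In the direct comparison of EGF with bleogen pB1 TNFAIP3 was higher by 2.25, BIRC3 by 1.54, TNFRSF25 by 1.20 and TNFRSF6B by 0.97 on the log2 scale, and CASP10 was at -0.86, TRAF5 at -0.64 and NOL3 at -0.53. The call of TRAF5, a TNF receptor adaptor, held in 2 of 6 fits with 1 library left out (adjusted p 0.00115 to 0.114, edgeR) and was lost without the second EGF, the third EGF, the first bleogen pB1 or the third bleogen pB1 library. That of NOL3 was lost, by the size of the change (-0.49, -0.50 and -0.44), without the second EGF, the third EGF or the first bleogen pB1 library.

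**Figure D3:**
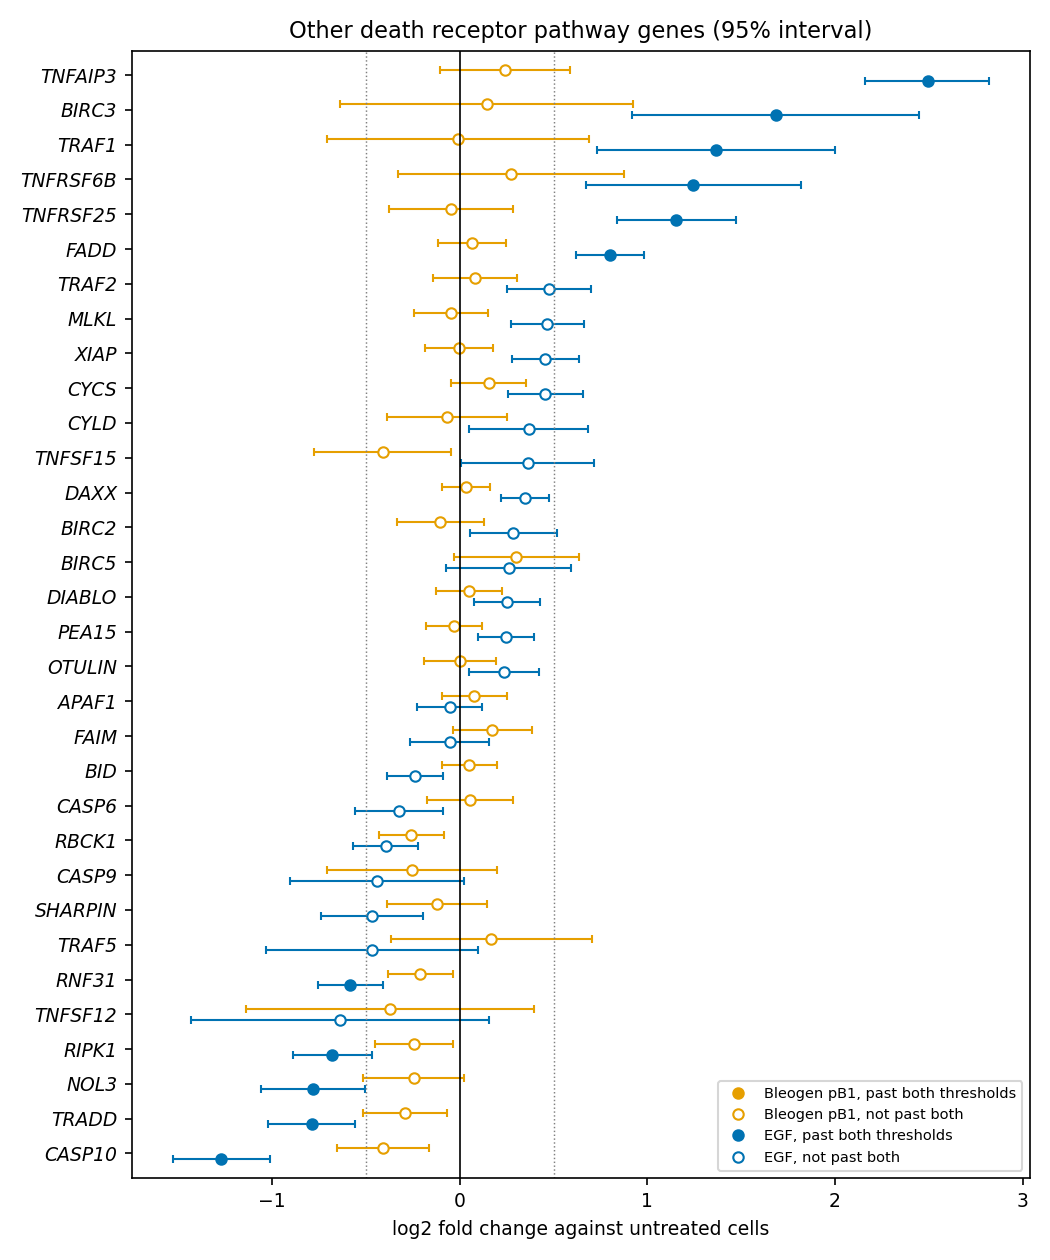
Log2 fold change against untreated cells (horizontal axis) of 32 of the tested genes of the death receptor pathway list under bleogen pB1 and EGF, with 95% intervals from the edgeR fit, ordered by the value under EGF. Filled points passed both thresholds. TNFAIP3 (2.49) and CASP10 (-1.27) are the ends of the EGF scale, and no point of bleogen pB1 is filled.

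Among 26 listed ligands and receptors of the wider TNF superfamily outside this pathway, 14 were tested. After EGF 2 were higher and 6 lower, and after bleogen pB1 2 were lower and none higher. Under bleogen pB1 3 of the 14 had an unadjusted p under 0.05 in edgeR, all lower. Among all tested genes the share was similar, 2750 of 12394. The shares of all tested genes called were 36.9% under EGF and 1.48% under bleogen pB1. TNFSF9, the ligand 4-1BBL, had 42.4 ± 1.57 FPKM in untreated and 26.2 ± 1.76 in bleogen pB1-treated cells (log2 -0.72, adjusted p = 0.00094, edgeR). Under EGF its log2 value was -0.21 (adjusted p = 0.053, edgeR), and EGF against bleogen pB1 gave 0.5008 (adjusted p = 0.00052, edgeR), so close to the limit that it passed in only 2 of 6 fits with 1 library left out (0.42 to 0.61). CD70, the ligand of CD27, fell under bleogen pB1 by 0.72 on the log2 scale (adjusted p = 0.011, edgeR) and under EGF by 0.87 (adjusted p = 0.00011, edgeR). Its call under bleogen pB1 was lost without the first or second untreated or the third bleogen pB1 library (adjusted p 0.0541, 0.0521 and 0.0574, edgeR). Both genes were picked after their values were seen.

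The 3 genes whose levels ran most like those of TNFSF10 over the 9 libraries were SCEL, METTL7A and RARG, with Pearson r of 0.9994, 0.9989 and 0.9988 of log2 CPM among 10867 genes. As 2009 genes had r over 0.9 with TNFSF10, and the libraries of a group lie together, this describes the group difference. For FAS the nearest were USO1, STAMBP and SLC25A17, with r of 0.9777, 0.9683 and 0.9623, and 432 genes had r over 0.9.

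The keratinocyte label was checked with 12 marker genes, all detected, whose summed level was 14306 to 15442 CPM in untreated, 12800 to 13194 in EGF-treated and 14120 to 16262 in bleogen pB1-treated libraries. Markers of other cell types were far lower, and the fibroblast gene PDGFRA and the endothelial gene KDR had 0 or 1 counts in every library. Other genes of these lists were detected. In untreated libraries the fibroblast gene COL3A1 had 93 to 107 counts, the endothelial gene CDH5 43 to 77 and the melanocyte gene MITF 105 to 158. The 7 fibroblast markers summed to 7.69 to 9.46, 1.27 to 1.93 and 6.20 to 9.31 CPM, and the 4 endothelial ones to 3.45 to 4.85, 0.281 to 0.490 and 1.18 to 1.94 CPM in the same order. The 5 leukocyte markers summed to 0.825 to 1.82, 0.844 to 1.62 and 1.26 to 2.20 CPM, and 6 melanocyte markers, of which the defining gene TYR was at 0, to 6.75 to 9.27, 5.10 to 6.47 and 6.77 to 8.15 CPM. The keratinocyte, fibroblast, endothelial and melanocyte sums were lower after EGF, and the endothelial sum also after bleogen pB1, as TNFSF10 was, and their part in these results was not tested. The keratinocyte genes did not move together: 5 of the 12 were called higher after EGF, such as KRT14 (log2 0.88) and ITGA6 (log2 1.30), and 4 lower, such as the abundant KRT5 (log2 -1.12).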

How the data were processed

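RNA of untreated, EGF-treated and bleogen pB1-treated HaCaT cells (3 libraries each, grouped by their deposited labels) was used. The authors had reads mapped to GRCh38.p12 at BGI, and the program that estimated counts is not given in the sources used here. Per gene, the authors deposited expected counts without depth scaling and FPKM values, which the authors scaled for gene length and depth. The methods name the PureLink kit and a BGISEQ instrument, and the labels the RNeasy kit, dUTP-marked strands and DNBSEQ.

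Rounded expected counts entered a quasi-likelihood model (glmQLFit, glmQLFTest) of edgeR 4.0.16, run in R 4.3.3, with genes kept by filterByExpr, TMM factors and all 9 libraries (6 residual degrees of freedom); p-values were adjusted by Benjamini-Hochberg over 12394 genes. Thresholds were an adjusted p of 0.05 and |log2FC| of 0.5, as in the study, which used DESeq2. Intervals (95%) come from SEs taken as |log2FC| over the square root of F and a t distribution with 6 degrees of freedom. The edgeR test adds degrees of freedom shared over genes, so its p-values do not correspond exactly to these intervals. Single values were compared by two-sided exact permutation tests with scipy 1.17.1. Promoter windows came from RefSeq. Replicates of a group differed by more than counting noise, and unevenly. The squared difference over its counting variance averaged 4.07 to 8.04 per well-counted gene between untreated libraries. It was 22.4 between the first and second EGF libraries and 22.6 between the first and second bleogen pB1 libraries.

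The genes and lists were chosen with earlier results of these data known. All 10 genes are named, with fixed ligands and signalling genes of the pathway list, up to 4 called genes per direction with at least 50 counts on average, and the 3 genes most like TNFSF10 and FAS (log2 CPM, prior count 2). RNF31, TRAF1, TNFRSF10C, TNFSF9 and CD70 were named after their values were seen. Alternatives were DESeq2 1.42.0, limma 3.58.1 on log2(FPKM + 1) or log2(FPKM + 0.1), RLE or upper-quartile factors, other filters and fold limits, fits of 6 libraries, a replicate block and each library left out. Of the genes this names, results for 2 are not reported here, though list totals include them. The scripts were tested on simulated data. Antisense and overlapping genes stay uncertain.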

Additional observations from a re-analysis of the deposited data

How the results depend on the processing

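EGF calls of TNFSF10, TNFRSF10A, TNFRSF10B, TNFRSF12A and CFLAR kept their direction and passed under DESeq2, limma, other scalings and filters and with any 1 library left out; a fold limit of 1 removed TNFRSF10B and CFLAR. Upper-quartile scaling moved the median of all genes under EGF from -0.01 to -0.12. Depth limits TNFRSF10D, FASLG and TNF, and groups of 3 limit small changes such as those under bleogen pB1.

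With limma on log2(FPKM + 1) without a filter, bleogen pB1 against untreated gave 99 calls over all genes and 0 of the 9, TNFSF10 having an adjusted p of 0.0723; the cause was not tested. With the adjusted p alone, without a fold limit, EGF against untreated gave 8187 over all genes, 8 of the 9 and 27 of the pathway list, bleogen pB1 against untreated 509, 2 and 1, and EGF against bleogen pB1 7214 over all genes and 28 of the pathway list. With a log2 limit of 1 these were 1892, 3 and 6 for EGF, 31 and 0 for bleogen pB1 (0 of the superfamily list), and 1458, 2 and 4 for EGF against bleogen pB1. At least 10 counts in every library, which leaves fewer genes, gave 5 superfamily genes for EGF against untreated and 4 for EGF against bleogen pB1, and limma on either FPKM scale gave 5 for the latter. Leaving out 1 library, bleogen pB1 against untreated ranged from 102 to 436 calls over all genes, 0 to 1 of the 9 genes and 1 to 2 of the superfamily list. The 436 calls came without the first bleogen pB1 library, beside 183 with all libraries.

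Uncalled genes changed sign. EGF against bleogen pB1 gave, with upper-quartile factors, -0.0434 for TNFRSF21 and -0.0154 for CASP8, with limma at a pseudocount of 1, with or without a filter, -0.0355 and -0.0270, and at 0.1 -0.0359 and -0.0292. With 1 library left out, TNFRSF1A ranged from -0.0481 to 0.000489 for EGF against bleogen pB1, TNFRSF10B from -0.163 to 0.0171 and FAS from -0.0450 to 0.141 for bleogen pB1. The log2 ratio of CFLAR to CASP8 under bleogen pB1 was -0.0509 from expected counts and -0.00261 to 0.107 with 1 library left out. The share of TNFRSF10D ranged from 0 to 0.0221% for bleogen pB1 and its difference between EGF and bleogen pB1 from -0.00422 to 0.0348 percentage points.

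Deviations of same-numbered libraries had mean correlations of 0.0281 (untreated and EGF), 0.0965 (untreated and bleogen pB1) and 0.0403 (EGF and bleogen pB1). Those of differently numbered libraries averaged -0.0141, -0.0486 and -0.0198 in the same order. As deviations cancel out within a group, these means largely follow from the first ones and are no separate observation. Single same-numbered pairs of untreated and bleogen pB1 libraries ran from -0.0304 to 0.207. These values cannot settle whether same-numbered libraries were paired, as the sources do not state how replicates were made. With a replicate block the calls were 4560, 186 and 3550 over all genes and 5, 1 and 4 of the 9, and of the genes named TNFSF9 alone lost a call, at 0.496 for EGF against bleogen pB1.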
